A study of Mus musculus with 135 samples.

Results

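Maternal Obox knockout (mKO) embryos were compared with wild-type embryos at the late 2-cell stage across all genes. The comparison comprises 6 of the 135 samples of the series, all from the same deposited table: 2 late 2-cell libraries and 1 blastocyst library labelled Obox mKO, and 2 late 2-cell libraries and 1 blastocyst library of the matching wild-type control. None received a treatment. A maternal knockout embryo comes from a mother without a functional gene, so the egg holds none of its product, and the allele from the father can still be read once the embryo's own genome is active. The labels do not give the strain, the ages of the animals, the parents' genotypes or the number of embryos in a library. They also do not say whether libraries of a group came from separate collections, so p-values measure only the spread between these libraries.

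OBOX proteins are homeobox transcription factors encoded by a large tandem gene cluster of the mouse. Some members are stored in the egg as maternal RNA and others are read from the embryo's genome soon after fertilization. Zygotic genome activation, the first transcription by the embryo, occurs in mice in a minor wave in the zygote and a major wave in the 2-cell embryo, during which genes of RNA processing, translation and energy metabolism are switched on. A separate set of 2-cell genes, such as the Zscan4 cluster, is read briefly and then shut off.

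RNA was measured by Smart-seq2, which reads full-length polyadenylated RNA from very small inputs. The deposited unit is FPKM, a share of the mapped fragments corrected for transcript length. FPKM of the mKO and matching wild-type libraries were rescaled here by median-of-ratios factors within a stage. Other libraries of the series, set beside these below, were rescaled over several stages together. Every level below is a scaled FPKM. Differences are on the log2(scaled FPKM + 1) scale, mKO minus wild type, and understate the change of low genes. FPKM are shares of a library, so fewer cells and less RNA per cell cannot be told apart, and the depth of the libraries is unknown. The deposited values summed to 184488 and 179978 in the mKO libraries, against 293375 and 291113 in the wild-type libraries at the late 2-cell stage. Rn45s, the ribosomal RNA precursor, took 3.00% and 2.2% of the mKO sums, against 0.746% and 0.320% of the wild-type sums. The mKO libraries were less alike than the wild-type libraries: 22.4% of genes differed at least 2-fold within the mKO pair, against 6.29% within the wild-type pair. The part of these library differences in the results was not tested.

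Stage markers were read in all libraries. At the late 2-cell stage the 2-cell genes Sp110 (48.7 and 50.4 in mKO, 42.5 and 41.4 in wild type) and Ubtfl1 (54.5 and 32.1 in mKO, 47.3 and 42.6 in wild type) were present. Of the other 2-cell markers, Zscan4d (3.12), Tdpoz4 (2.39), Zfp352 (1.72) and Usp17le (1.21) were higher in mKO on average and Nr5a2 (-0.10) and Hspa8 (-0.57) were not, and none was called. The oocyte marker Zp3 had 35.0 and 23.8 in mKO, against 65.5 and 73.1 in wild type (-1.23, not called), and Gdf9, Bmp15 and Nlrp5 overlapped between groups. The trophectoderm factor Cdx2 was listed at 0 in all 4 libraries. At the blastocyst stage Cdx2 had 29.2 in mKO and 32.0 in wild type, and Zscan4d was listed at 0 in both. Of 19 cumulus and granulosa cell markers, 8 were listed at 0 in all 4 late 2-cell libraries, Fshr, Foxl2 and Inha among them, and 16 were under 1 in all 4. The whole list summed to 13.7 and 15.9 in mKO and to 16.8 and 17.5 in wild type. Most of this was Amhr2, with 9.32 and 11.7 in mKO, against 13.9 and 16.2 in wild type. Of 20 sperm and spermatid markers, 6 were listed at 0, Tnp1 and Tnp2 among them, and 12 were under 1 in all 4. The list summed to 66.6 and 33.7 in mKO and to 31.0 and 30.4 in wild type. Most of this was Ldhc, with 54.7 and 18.4 in mKO, against 19.6 and 22.2 in wild type.

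The maternal Obox transcripts were nearly absent from mKO embryos. Obox5 had 0.328 and 0.757 in the mKO libraries, against 107 and 49.7 in the wild-type libraries. Obox1 had 0.267 and 0.0961 in mKO, against 30.9 and 15.9 in wild type. Obox2 was listed at 0 in both mKO libraries, against 31.6 and 15.2 in wild type. All 3 fell in mKO embryos (limma adjusted p = 0.0402 for each), with differences of -5.60 ± 0.46 (SE) for Obox5 and -4.30 ± 0.44 for Obox1. Obox7 had 0 and 0.571 in mKO, against 9.08 and 4.22 in wild type, and did not pass the test (limma adjusted p = 0.0621). In no member of this maternal group did the mKO and wild-type libraries overlap. The 4 transcripts together summed to 0.595 and 1.42 in mKO, against 179 and 85 in wild type, and were listed at 0 in both blastocyst libraries.

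Obox transcripts of the embryo's own genome were still read in mKO embryos. Obox6 had 239 and 171 in mKO, against 374 and 407 in wild type, a difference of -0.94 ± 0.36 (SE) that did not pass the test (limma adjusted p = 0.175). Obox8 had 113 and 55.2 in mKO, against 92.8 and 71.3 in wild type. Obox3 had 16.7 and 13.8 in mKO, against 31.4 and 13.7 in wild type. The ranges of the 2 groups overlapped for Obox8 and Obox3, and both mKO libraries lay below both wild-type libraries for Obox6. OboxA7, a copy without a name of its own, had 86.5 and 56.0 in mKO, against 105 and 53.1 in wild type. OboxA5 and OboxA10 were also above 35 in every late 2-cell library. For OboxA10, as for Obox6, both mKO libraries (55.6 and 52.9) lay below both wild-type libraries (111 and 91.1), and the difference was not called (-0.88, limma adjusted p = 0.156).

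**Figure D1:**
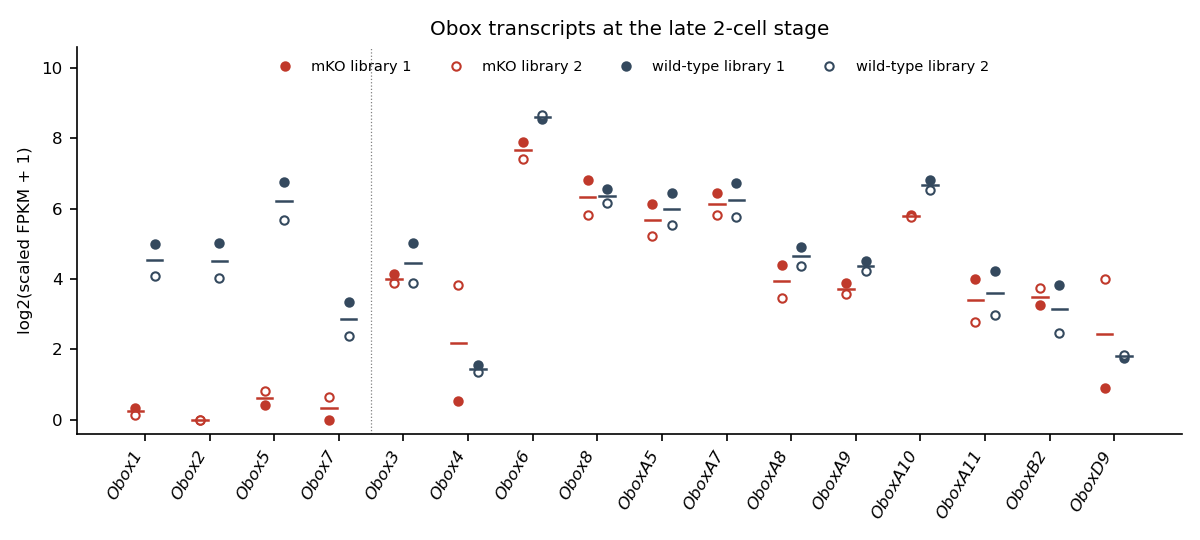
Levels of 16 Obox transcripts at the late 2-cell stage as log2(scaled FPKM + 1), each point a library and each bar the mean of 2 libraries, with mKO left of wild type for each gene. Left of the dotted line, Obox1, Obox2, Obox5 and Obox7 lie near 0 in mKO; right of it, mKO and wild-type points overlap for Obox3 and Obox8, the mKO points lie below the wild-type points for Obox6 (239 and 171 in mKO, 374 and 407 in wild type), and for Obox4 and OboxD9 mKO library 2 stands above the other 3.

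Obox4 and the OboxD copies behaved differently between the mKO libraries. Obox4 had 0.44 and 13.1 in mKO, against 1.93 and 1.53 in wild type. Over Obox4 and the 16 tested OboxD copies together, the range was 0.44 to 1.02 in mKO library 1 and 6.49 to 15.6 in mKO library 2, against 1.06 to 2.61 and 0.937 to 3.11 in the wild-type libraries. OboxD9, OboxD10, OboxD11 and OboxD12 have identical values in each library, so reads are shared between copies and single values are uncertain. No member of this group was called.

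Several of these transcripts were lower in knockouts of both gene sources, but not all were absent there. In maternal and zygotic knockout (mzKO) late 2-cell embryos, measured in a separate table with 3 libraries a group and controls of its own, Obox3 differed by -4.32 and Obox8 by -3.09 from wild type, and both fell (limma adjusted p = 0.0176 and 0.0164). Obox6 (-1.94), OboxA7 (-5.96) and OboxA5 (-5.61) fell there as well. Obox6 was still read, with means of 41.6 in mzKO and 166 in its wild type, and Obox8 had 5.37 and 53.4. OboxA7 was listed at 0 in mzKO. In single late 2-cell embryos labelled Obox-- against Obox+-, another table with 4 and 3 libraries, Obox3 (-4.16) and OboxA7 (-6.26) fell, and Obox6 (-0.39), Obox8 (-0.33), Obox1 (0.40) and Obox5 (-0.68) were not called. Obox3 and OboxA7 were listed at 0 in Obox-- embryos. Obox6 had means of 166 in Obox-- and 217 in Obox+-, and Obox8 had 91.7 and 119. The tables were normalized separately, so their differences are set side by side without a test between them.

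Across the genome, 12 of 10262 genes tested were called in mKO late 2-cell embryos (0.117%; limma adjusted p under 0.05 and at least a 2-fold difference): 4 were higher (0.039% of genes tested) and 8 were lower (0.078%). The unadjusted p was under 0.05 for 2519 genes, 24.5% of those tested. With 2 libraries a group the fit has 2 residual degrees of freedom, and the smallest adjusted p was 0.0402. The set of calls depended on the libraries and the scaling: limma made 0 calls without wild-type library 2, 24 without wild-type library 1, 1972 without mKO library 1 and 1407 without mKO library 2, and 1331 with the FPKM as deposited.

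**Figure D2:**
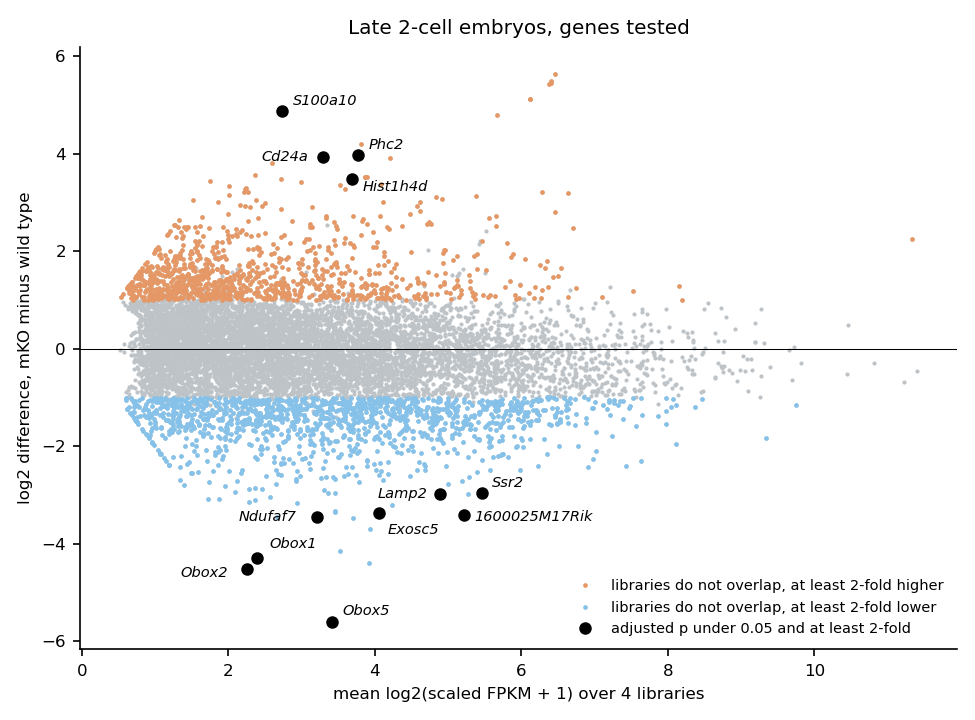
Difference between mKO and wild-type late 2-cell embryos (log2, vertical axis) against mean level (horizontal axis, log2 of scaled FPKM + 1) for 10262 genes, each point a gene. Black points are the 12 called genes, orange and blue points the 991 and 1344 genes whose mKO and wild-type libraries do not overlap and differ at least 2-fold on average.

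Beyond the Obox genes, 5 genes fell in mKO embryos. Exosc5 encodes a core subunit of the RNA exosome, which trims and degrades RNA. It had 5.34 and 3.20 in mKO, against 49.9 and 55.3 in wild type (-3.37 ± 0.36 SE, limma adjusted p = 0.0402). Ndufaf7 encodes a methyltransferase needed to assemble respiratory complex I. It had 1.95 and 1.68 in mKO, against 24.6 and 36.1 in wild type (-3.46 ± 0.36 SE, the same adjusted p). Ssr2 encodes a subunit of the translocon-associated protein complex of the endoplasmic reticulum. It had 16.2 and 13.4 in mKO, against 117 and 128 in wild type (-2.97). Lamp2, a lysosomal membrane protein, had 10.7 and 8.51 in mKO, against 85.5 and 79.3 in wild type (-2.98). The transcript 1600025M17Rik had 8.28 and 13 in mKO, against 108 and 134 in wild type (-3.41). All 5 had mKO libraries well below both wild-type libraries.

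Of these 5, Ssr2 (-3.80), 1600025M17Rik (-3.61), Exosc5 (-3.27) and Ndufaf7 (-1.81) were called lower in mzKO embryos too, where 8.35% of 13733 genes were called lower. Lamp2 was not, with means of 30.4 in mzKO and 46.0 in its wild type (-0.43, limma adjusted p = 0.702). None of the 5 was called in Obox-- embryos, where 0.668% of 11678 genes were called lower: the differences were -0.91 for Ssr2, -0.51 for 1600025M17Rik, -0.06 for Exosc5, -0.96 for Ndufaf7 and -0.42 for Lamp2.

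Promoter windows are shown for Exosc5 and Ndufaf7, which fell in both mKO and mzKO embryos, and for Znhit6, a factor for assembling box C/D small nucleolar ribonucleoproteins. Znhit6 had 3.63 and 7.30 in mKO, against 47.6 and 66.3 in wild type (-3.21, limma adjusted p = 0.0579), and was chosen, after its values were seen, as a gene that was lower in both comparisons and holds the motif searched. The motif searched on both strands was TAATCC, the letters bound by paired-like homeodomain proteins such as CRX and OTX2, with its reverse complement GGATTA. Sequences are RefSeq GRCm38.p6, 250 bases before to 50 after the annotated start, 5′ to 3′ on the gene's strand. Exosc5 is at chr7:25658903-25659202 (plus strand), Ndufaf7 at chr17:78936885-78937184 (plus strand) and Znhit6 at chr3:145575958-145576257 (plus strand). Capitals mark the motif.
Exosc5: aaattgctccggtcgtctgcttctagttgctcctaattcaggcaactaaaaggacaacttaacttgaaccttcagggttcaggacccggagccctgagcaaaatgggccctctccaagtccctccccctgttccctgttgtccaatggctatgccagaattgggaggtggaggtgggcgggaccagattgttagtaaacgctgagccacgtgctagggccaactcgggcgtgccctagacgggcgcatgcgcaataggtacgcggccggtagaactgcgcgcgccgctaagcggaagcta
Ndufaf7: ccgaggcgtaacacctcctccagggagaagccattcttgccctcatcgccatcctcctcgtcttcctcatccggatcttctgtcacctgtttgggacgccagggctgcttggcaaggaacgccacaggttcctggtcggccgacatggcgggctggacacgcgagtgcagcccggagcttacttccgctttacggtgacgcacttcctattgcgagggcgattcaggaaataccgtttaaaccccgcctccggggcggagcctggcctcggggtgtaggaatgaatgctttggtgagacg
Znhit6: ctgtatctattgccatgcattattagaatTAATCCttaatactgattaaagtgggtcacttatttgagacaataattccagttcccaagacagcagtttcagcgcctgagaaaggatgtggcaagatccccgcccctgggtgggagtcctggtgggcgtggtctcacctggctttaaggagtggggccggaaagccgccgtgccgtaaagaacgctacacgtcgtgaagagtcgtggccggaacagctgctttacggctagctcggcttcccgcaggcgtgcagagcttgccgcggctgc
Znhit6 holds 1 copy and the other 2 windows hold 0. Windows were found for 7696 of the 10262 genes tested, and 7.11% of those genes have the motif in a window. The share was 7.54% among 995 genes whose libraries were apart and lower in mKO, 10.3% among 687 that were apart and higher, and 7.5% among 280 that were apart and lower in mKO and also called lower in mzKO. It was 9.88% among 850 genes called lower in mzKO and 5.65% among 407 called higher there, whether or not tested in mKO. For genes that were lower in both comparisons the share was close to that of all genes tested. Differences between these shares were not tested.

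The 4 genes that rose in mKO embryos were S100a10, Phc2, Cd24a and Hist1h4d. S100a10, the binding partner of annexin A2 and a gene of the trophectoderm list, had 23.3 and 52.4 in mKO, against 0.522 and 0 in wild type (4.87 ± 0.49 SE, limma adjusted p = 0.0402). Phc2, a subunit of Polycomb repressive complex 1, had 51.5 and 54.8 in mKO, against 2.44 and 2.46 in wild type (3.97 ± 0.32 SE). Cd24a, a surface sialoglycoprotein, had 38.2 and 36.8 in mKO, against 2.60 and 0.767 in wild type (3.93, limma adjusted p = 0.0476). Hist1h4d, one of many genes for histone H4 with nearly the same coding sequence, had 51.7 and 34.5 in mKO, against 3.13 and 2.60 in wild type (3.49). Smart-seq2 reads polyadenylated RNA, so Hist1h4d transcripts without a poly(A) tail are not measured. In mzKO embryos S100a10 (3.66) and Cd24a (2.34) rose as well, against 4.02% of genes called higher there, whereas Phc2 (-0.32) and Hist1h4d (1.44) were not called. Phc2 had means of 12.3 in mzKO and 15.0 in its wild type, and of 59.1 in Obox-- and 45.5 in Obox+- late 2-cell embryos. Controls of the other comparisons thus had more Phc2 than the wild-type libraries here, on separately scaled levels.

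Other annotated genes with large positive differences did not pass the test. Predicted genes (Gm and a number) are left out here, of which Gm21304 (5.63), Gm6763 (5.48) and Gm8764 (5.44) had larger differences and were not called either. Muc1, a membrane mucin, had 4.41 and 21.7 in mKO, against 0 and 0.0297 in wild type (limma adjusted p = 0.0628). Sct, the hormone secretin, had 18 and 24.4 in mKO, against 0 and 2.94 in wild type (adjusted p = 0.0615). Tmco5b had 10.5 and 43.4 in mKO, against 1.14 and 0.228 in wild type, and Tex40 had 15.7 and 39.1 in mKO, against 1.91 and 1.05 in wild type. Sva had 80.3 and 43.2 in mKO, against 8.12 and 0.174 in wild type, and Pramef25 had 41.4 and 120.0 in mKO, against 9.34 and 1.18 in wild type. In all 6 both mKO libraries lay above both wild-type libraries, and all but Pramef25 (0.45) were called higher in mzKO embryos.

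Because so few genes pass the test, gene lists are described by how many members had libraries that do not overlap between groups and differed at least 2-fold on average, called apart below, and by the median difference. Of all genes tested, 991 were apart and higher in mKO (9.66%) and 1344 were apart and lower (13.1%), with a median difference of -0.05. This split depended on scaling: with the FPKM as deposited 479 were higher and 2692 lower (median of all genes -0.48), with upper-quartile scaling 1227 higher and 1065 lower, and with equal sums without Rn45s 1284 higher and 1015 lower. For each list named below as higher or lower, the sign of the median difference was the same under all 4 scalings.

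The 2-cell genes were the list with the highest median difference among the lists chosen for this stage. Of 37 members tested, 27 were apart and higher in mKO, 0 were apart and lower, and the median difference was 2.39, with 35 members higher on average. None was called (smallest limma adjusted p = 0.0582), and 25 had an unadjusted p under 0.05. Gm6763, a predicted gene resembling the translation factor gene Eif1a, had 249 and 1279 in mKO, against 40.3 and 2.88 in wild type. BB287469, another Eif1a-like gene, had 138 and 643 in mKO, against 56.6 and 17.8 in wild type. Zscan4d, of a zinc finger family that binds telomeric and repeat DNA, had 48.7 and 301 in mKO, against 18.8 and 9.02 in wild type. The copies of these families are nearly identical, so values of single copies are uncertain.

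The 2-cell genes also varied within groups. The list summed to 2032 and 7419 in mKO, against 1134 and 531 in wild type. mKO library 2 was above mKO library 1 for 34 of 37 members, and wild-type library 1 was above wild-type library 2 for 35 of 37. Without mKO library 2 the median difference was 1.59, and without wild-type library 2 it was 1.70. Not all 2-cell genes differed: Sp110 (0.23), an interferon-inducible nuclear protein, and Ubtfl1 (-0.10), a relative of the ribosomal transcription factor UBTF, differed little between groups, and both fell in mzKO embryos (-2.10 and -2.16). In mzKO embryos 8 of the 37 were called higher and 5 lower. Of all genes tested in both comparisons, 4.77% were called higher there and 11.2% lower.

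Proteasome genes were the list with the lowest median difference of those chosen for this stage. The proteasome is the complex that degrades ubiquitin-tagged proteins. Of 37 members tested, 21 were apart and lower in mKO, 0 were apart and higher, and the median difference was -1.07. Psma6, a subunit of the core particle, had 94.0 and 34.0 in mKO, against 250 and 303 in wild type (-2.26, limma adjusted p = 0.0766). Psmb1, another core subunit, had 143 and 97.5 in mKO, against 211 and 340 in wild type (-1.17). Psmd14, the deubiquitinase of the regulatory lid, had 16.1 and 22.8 in mKO, against 93.9 and 132 in wild type (-2.48, adjusted p = 0.0579). No member was called, and 25 had an unadjusted p under 0.05. In mzKO embryos 2 of the 37 were called lower, a smaller share than the 11.2% of all genes tested in both comparisons, and the median difference was -0.70.

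Genes of oxidative phosphorylation had a median difference of -0.81, and 32 of 76 were apart and lower, with 0 apart and higher. The 2 members with the highest levels differed little: Atp5g1, of the ATP synthase ring, had 346 and 402 in mKO, against 439 and 474 in wild type (-0.29), and Cox8a had 269 and 268 in mKO, against 432 and 283 in wild type (-0.38). Ndufa12, a subunit of complex I, had 0.702 and 5.43 in mKO, against 49.0 and 95.2 in wild type (-4.39, limma adjusted p = 0.0579). Cox7c, of cytochrome c oxidase, had 4.88 and 6.74 in mKO, against 35.9 and 51.4 in wild type (-2.70). In mzKO embryos the list had a median of -0.43, with 4 of 76 called lower, again a smaller share than the 11.2% of all genes.

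Nuclear genes of mitochondrial ribosomes and of mitochondrial protein import, listed after the values were seen, had medians of -1.04 and -0.75. Of 76 mitochondrial ribosomal protein genes, 40 were apart and lower, and 2 were higher on average. Mrpl33 had 3.86 and 2.15 in mKO, against 34.2 and 53.2 in wild type, and Mrps18a had 2.51 and 2.39 in mKO, against 26.3 and 44.0 in wild type (limma adjusted p = 0.0515 for each). Of 23 import genes, 8 were apart and lower. Timm13, a chaperone of the intermembrane space, had 0.692 and 3.46 in mKO, against 41.4 and 55.0 in wild type (-4.15, adjusted p = 0.0579).

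**Figure D3:**
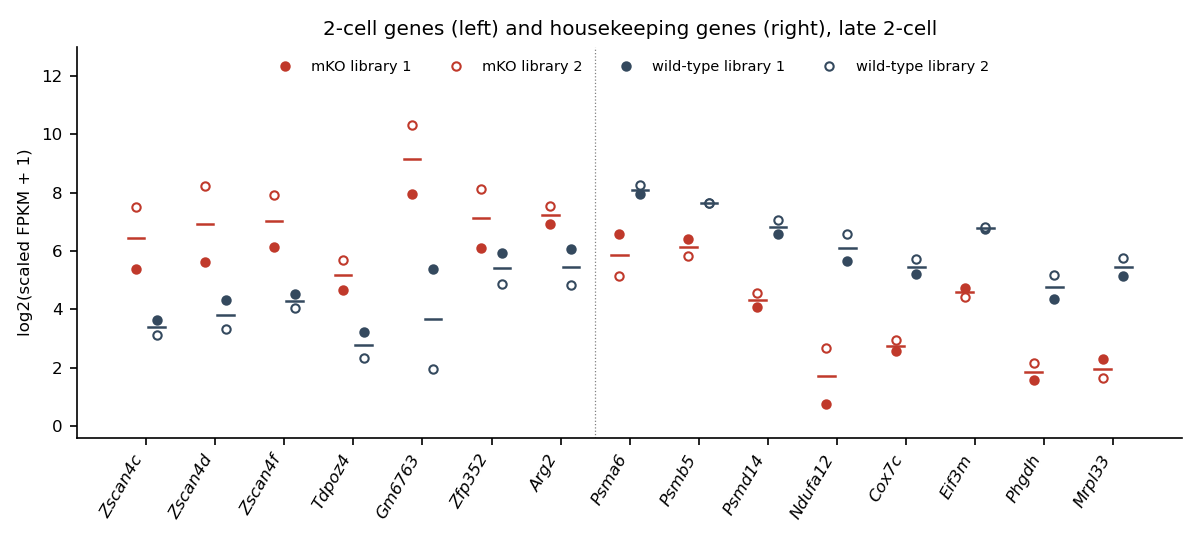
Levels of 15 genes as log2(scaled FPKM + 1), each point a library and each bar the mean of 2 libraries, with mKO left of wild type. Left of the dotted line, 2-cell genes such as Zscan4d (48.7 and 301 in mKO, 18.8 and 9.02 in wild type) are higher in mKO; right of it, genes of the proteasome, respiration, translation, serine synthesis and mitochondrial ribosomes are lower in mKO.

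Genes of the protein synthesis machinery were lower to different degrees. Of 75 ribosome biogenesis genes, 22 were apart and lower and 0 higher, with a median of -0.76. Npm1, the most abundant nucleolar phosphoprotein of the list, had 509 and 475 in mKO, against 588 and 510 in wild type (-0.15), whereas Polr1e, a subunit of RNA polymerase I, had 14.0 and 9.95 in mKO, against 37.5 and 43.3 in wild type (-1.69, limma adjusted p = 0.0645). Of 42 translation factors, 15 were apart and lower and 0 higher, with a median of -0.76. Eif3m had 25.8 and 20.5 in mKO, against 107 and 112 in wild type, and Eif3g had 22.5 and 26.2 in mKO, against 104 and 119 in wild type. Both are subunits of the initiation factor eIF3, and both had an adjusted p of 0.0579. Eif1 (0.15) and Eif4e (-0.23), the members with the highest levels, differed little.

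Cytosolic ribosomal protein genes were nearer to the background, with 12 of 80 apart and lower (15.0%, against 13.1% of all genes) and a median of -0.39. Rpl41 had 2026 and 1305 in mKO, against 2008 and 1976 in wild type. In mzKO embryos 17 of the 80 were called lower, against 11.2% of all genes tested in both comparisons, with a median of -1.02. Of 51 splicing factors, 14 were apart and lower and 0 higher (median -0.57). Genes of the transcription machinery were also near the background, with 11 of 69 apart and lower (15.9%, against 13.1% of all genes) and 2 higher (median -0.40).

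Genes of serine synthesis and one-carbon metabolism, which feed nucleotide synthesis and methylation, had 7 of 21 members apart and lower and 0 higher, with a median of -0.64. Phgdh, the first enzyme of serine synthesis, had 1.99 and 3.43 in mKO, against 19.2 and 35.3 in wild type (-2.89, limma adjusted p = 0.0579). Gcsh, of the glycine cleavage system, had 498 and 329 in mKO, against 660 and 833 in wild type (-0.87), and Mat2b, of methionine adenosyltransferase, had 125 and 121 in mKO, against 213 and 232 in wild type (-0.85). In mzKO embryos 9 of the 21 were called lower, Phgdh (-2.53) and Gcsh (-1.83) among them, against 11.2% of all genes.

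**Figure D4:**
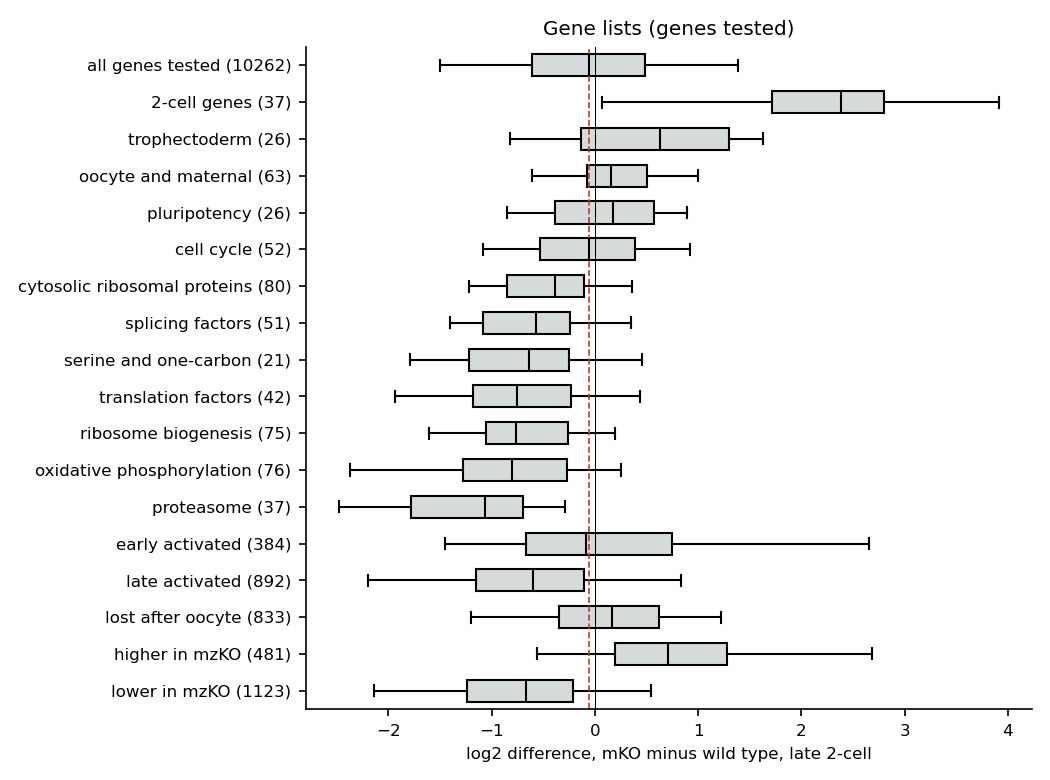
Differences between mKO and wild-type late 2-cell embryos (log2, horizontal axis) for the tested members of each gene list, with the number of members in brackets. Boxes span the quartiles with the median as a line and whiskers the 5th to 95th percentiles; the dashed line is the median of all genes tested (-0.05), the 2-cell genes lie farthest right (median 2.39) and the proteasome genes farthest left (median -1.07).

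Trophectoderm genes, which mark the outer lineage of the blastocyst, were low at this stage. Of 26 members tested, 11 were apart and higher in mKO, 2 were apart and lower, and 1, S100a10, was called (median 0.63). Krt18, a keratin, had 3.17 and 2.45 in mKO, against 0.485 and 0.190 in wild type (1.51, limma adjusted p = 0.0772). Anxa2, which encodes annexin A2, had 3.13 and 21.8 in mKO, against 1.49 and 0.531 in wild type (2.31). Tead4, the transcription factor required for this lineage, had 1.39 and 0.376 in mKO, against 5.75 and 4.31 in wild type (-1.72, adjusted p = 0.0852). In mzKO embryos 11 of the 26 were called higher and 1 lower, with Krt18 (2.01), Anxa2 (3.25) and Tead4 (-1.73) among those called. The shares over all genes tested in both comparisons were 4.77% higher and 11.2% lower.

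The other lists are described by the same counts. Where no share is given, the counts stand against 9.66% higher and 13.1% lower over all genes. Of 63 oocyte and maternal genes, 5 were apart and higher and 1 lower. Dppa3, which protects maternal DNA methylation, was not apart, with 3211 and 1670 in mKO, against 2798 and 3597 in wild type. Of 26 pluripotency genes, 1 was apart in each direction, and of 34 genes for maternal RNA decay, 1 was higher and 2 lower. Of 52 cell cycle genes, 3 were apart and higher and 5 lower, and of 40 chromatin and DNA methylation genes, 0 and 1. The p53 target list had 2 of 21 apart in each direction and the stress response list 3 of 26 in each (11.5%). Of 34 germ cell genes, 5 were apart and higher (14.7%) and 4 lower (11.8%), and of 38 glycolysis and TCA cycle genes, 2 and 4. Amino acid transporters had 0 of 11 apart, and primitive endoderm genes 1 of 7 in each direction.

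Early embryo transcription factors had 4 of 34 members apart in each direction (11.8%), near the 9.66% higher and 13.1% lower of all genes. Spic, an ETS family factor, had 93.1 and 69.5 in mKO, against 227 and 345 in wild type (-1.78, limma adjusted p = 0.0686). In mzKO (-5.60) and Obox-- (-2.89) embryos it fell. Dppa4, an activator of the 2-cell program, had 126 and 169 in mKO, against 252 and 277 in wild type (-0.85). Nr5a2, a nuclear receptor, had 16.7 and 15.9 in mKO, against 13.1 and 23.6 in wild type, so its groups overlapped.

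Genes normally switched on late in the 2-cell embryo were lower in mKO embryos, and genes switched on early had a median near that of all genes. Activated genes were defined in the separate wild-type table as at least 4-fold higher, and called, in late 2-cell embryos than in MII oocytes. Their mean there also had to be at least 5 in late 2-cell embryos. All genes tested do not share this condition, and the part of this selection in the counts was not tested. Of these, 384 were already called higher at the early 2-cell stage and 892 were not. Of the 892 late activated genes, 267 were apart and lower in mKO and 31 were apart and higher, with a median of -0.60, and 4 were called lower and 1 higher. Of the 384 early activated genes, 58 were apart and lower and 68 were apart and higher, with a median of -0.09, which was 0.06 with upper-quartile scaling. Of 833 genes lost between oocyte and late 2-cell embryo, 56 were apart and lower and 83 higher, with a median of 0.17, which was -0.26 with the FPKM as deposited.

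The genes were also read in the wild-type step between the early and late 2-cell stages. Among the 1344 genes that were apart and lower in mKO, 1335 were tested in that step, and 581 of them (43.5%) were called higher in late than in early wild-type embryos, against 20.7% of 10111 genes tested in both. The median wild-type difference was 1.12, against 0.22 over all genes. Among 927 genes that were apart and higher in mKO, 211 (22.8%) were called lower in late than in early wild-type embryos, against 14.8% of all genes. In the other direction, 72 of the genes apart and lower in mKO (5.39%) were called lower in the step, and 44 of those apart and higher (4.75%) were called higher. The 5 genes other than Obox genes that fell in mKO were all called higher in the step: 1600025M17Rik (4.15), Exosc5 (4.08), Ssr2 (3.46), Lamp2 (2.54) and Ndufaf7 (1.31). None of the 4 genes that rose in mKO was called in it, with differences of -0.23 for S100a10, -0.69 for Phc2, -0.33 for Hist1h4d and 1.13 for Cd24a. The 2-cell genes Zscan4d (-5.22) and Gm6763 (-5.45), which were not called in mKO, were called lower in the step. This contrast was added after the values were seen. To be apart and lower, a gene must be expressed in wild-type late 2-cell embryos, and to be apart and higher, in mKO embryos. All genes tested do not share these conditions, and the part of this selection in the shares was not tested.

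The mKO and mzKO comparisons do not share control libraries. Of 1123 genes other than Obox genes that were called lower in mzKO embryos and tested here, 380 (33.8%) were apart and lower in mKO and 18 (1.60%) apart and higher. Their median difference was -0.67 in mKO, against -1.63 in mzKO. Of 481 genes called higher in mzKO embryos, 168 (34.9%) were apart and higher in mKO and 4 (0.832%) apart and lower, with medians of 0.71 in mKO and 1.49 in mzKO. Read from the other side, 28.8% of the 1335 genes apart and lower in mKO were called lower in mzKO, and 18.2% of the 927 genes apart and higher were called higher, against 11.2% called lower and 4.77% called higher of all 10111 genes tested in both. Without mKO library 2 the medians of the 2 mzKO lists in mKO were -0.51 and 0.48, and without mKO library 1 they were -0.88 and 0.84. In Obox-- embryos, 22 of 1267 genes apart and lower in mKO were called lower and 10 of 806 apart and higher were called higher, against 0.668% called lower and 0.214% called higher of all genes there.

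At the blastocyst stage, with 1 library a group and no test, most of these genes no longer differed 2-fold. Of 1217 genes that were apart and lower in mKO at the late 2-cell stage and had at least 1 in a blastocyst library, 1180 (97.0%) lay within 2-fold in mKO against wild type, and their median difference was -0.02, against -1.38 at the late 2-cell stage. Of 495 genes that were apart and higher, 448 (90.5%) lay within 2-fold, with a median of -0.02, against 1.35 before. Among all genes at this stage, 94.8% lay within 2-fold, 236 of 9589 (2.46%) were at least 2-fold higher and 258 (2.69%) lower. With the FPKM as deposited, 365 were higher and 199 lower. Exosc5 had 44.4 in mKO and 49.0 in wild type, Ndufaf7 had 12 in mKO and 13.3 in wild type, and Ssr2 had 136 in mKO and 139 in wild type. S100a10 had 264 in mKO and 308 in wild type.

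**Figure D5:**
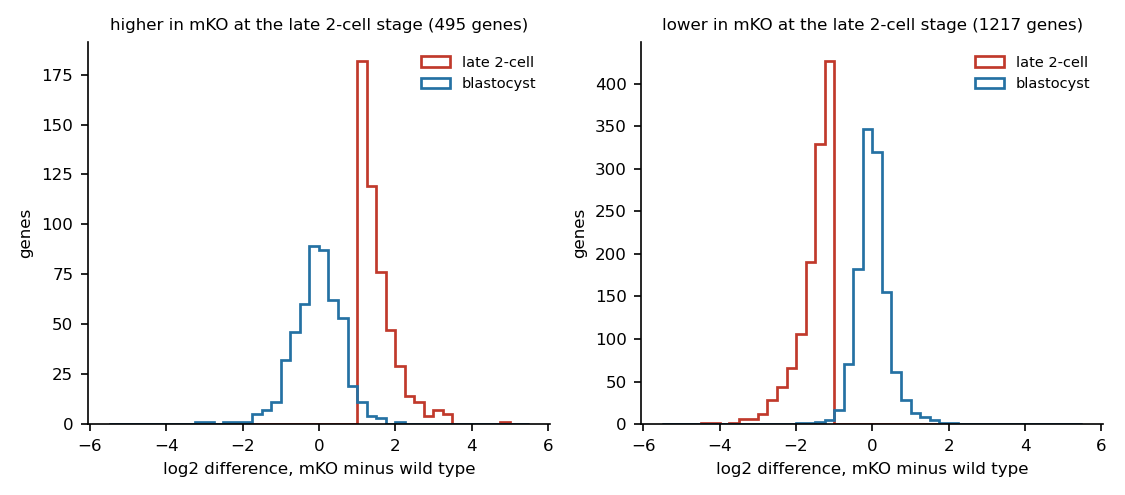
Numbers of genes (vertical axis) by the difference between mKO and wild type (log2, horizontal axis) at the late 2-cell stage (red) and in the blastocyst (blue), for genes apart and higher (left, 495) or apart and lower (right, 1217) in mKO at the late 2-cell stage. Red values lie beyond 1 by selection; blue values centre near 0 (median -0.02 in both panels).

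The blastocyst stage markers lay within 2-fold between the libraries. They were Cdx2, Krt8, Krt18, Gata3, Eomes, Pou5f1, Nanog, Sox2, Gata6, Pdgfra and Sox17. Pou5f1, the core pluripotency factor, had 71.4 in mKO and 47.2 in wild type, Nanog had 79.5 in mKO and 69.5 in wild type, and Gata6, of the primitive endoderm, had 12.7 in mKO and 11.4 in wild type. Krt18 had 1408 in mKO and 2281 in wild type. The counts that follow stand against 2.46% of all genes at least 2-fold higher and 2.69% lower. Of 37 trophectoderm genes, 1 was at least 2-fold higher and 1 lower, and of 29 pluripotency genes, 0 were higher and 2 lower. Of 20 primitive endoderm genes, 1 was higher and 3 were lower, all at low levels: Gata4 had 2.81 in mKO and 7.55 in wild type, Sox7 had 1.12 in mKO and 3.64 in wild type, and Foxa2 was listed at 0 in mKO with 1.74 in wild type. None of 37 proteasome, 76 oxidative phosphorylation, 75 ribosome biogenesis and 42 translation factor genes was 2-fold apart. Cytosolic ribosomal protein genes had a median of -0.63, and 0 of 80 were past 2-fold. Of the Obox genes only Obox6 had at least 2 in a blastocyst library, with 14.1 in mKO and 5.43 in wild type.

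Some genes of amino acid supply and the stress response were at least 2-fold lower in the mKO blastocyst than in the wild-type blastocyst. Of 32 stress response genes, 9 were at least 2-fold lower in mKO and 0 higher, against 2.69% and 2.46% of all genes. The list median was -0.31, and its metallothionein genes Mt1 (2569 in mKO, 1780 in wild type) and Mt2 (846 and 678) were higher within 2-fold. Ddit3, a stress-induced transcription factor, had 13.2 in mKO and 117 in wild type, Trib3, its pseudokinase target, had 6.70 in mKO and 72.3 in wild type, and Asns, asparagine synthetase, had 157 in mKO and 497 in wild type. Of 16 amino acid transporters, 7 were lower and 0 higher (median -0.90), Slc3a2 with 56.3 in mKO and 122 in wild type among them. Of 23 serine and one-carbon genes, 5 were lower and 1 higher, and the median was near 0 (-0.09). Psat1 had 176 in mKO and 660 in wild type, and Bhmt had 59.5 in mKO and 17.2 in wild type. At the late 2-cell stage Ddit3 had 17.5 and 53.5 in mKO and 13 and 5.70 in wild type, so both mKO libraries lay above both wild-type libraries there. With 1 library each, a difference between genotypes and one between 2 libraries cannot be told apart.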

How the data were processed

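RNA-seq values were deposited by the authors as FPKM in tables of genes by libraries. Per the labels' protocols, zonae were removed, embryos lysed and libraries made by Smart-seq2. StringTie 2.1.2, HISAT2 2.2.1 and the mm9 genome are listed, per the submitters' processing notes, without a role. The tables hold no counts. Between low values of library pairs the most common ratio held 1.04% to 3.25% of genes, so whole reads were not recovered, and depth is unknown. Of 24143 gene names, 27 turned into dates were left out.

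FPKM were divided by median-of-ratios factors (late 2-cell 0.865 and 0.801 in mKO, 1.22 and 1.18 in wild type). limma 3.58.1 (R 4.3.3) was fitted to log2(scaled FPKM + 1) of the 4 late 2-cell libraries with trended, robust empirical Bayes moderation, and Benjamini-Hochberg adjustment ran over all genes with at least 1 in at least 2 libraries. The mzKO and single-embryo tables were fitted separately, as 3 against 3 and 4 against 3 libraries within all replicated groups of each table (16 and 9 residual degrees of freedom). The procedure was tested on simulated data.

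Members, comparisons and gene lists were chosen with earlier results of these data known, and lists marked as such after the values were seen. Genes named are the Obox genes, called genes, where fewer than 5 were called the 10 largest differences at an unadjusted p under 0.05 with predicted genes left out, and the 2 members with the highest mean of each list without a call. Other names, among them Psmd14, Ndufa12, Cox7c, Polr1e, Eif3m, Eif3g, Phgdh, Krt18, Anxa2, Tead4 and the blastocyst stress genes, were picked after their values were seen. Replicate numbers did not pair libraries.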

Additional observations from a re-analysis of the deposited data

How the results depend on the processing

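The count of 12 called genes was the least stable value. limma made 1331 calls with the FPKM as deposited (149 higher, 1182 lower) and 343 with a filter of at least 5 in 2 libraries. Both sets held all 12 genes. There were 8 calls with a pseudocount of 5. There were 0 calls with upper-quartile scaling (2514 genes at an unadjusted p under 0.05), with equal sums without Rn45s (2509), with a pseudocount of 0.1 (2352), with no filter (2815), without trend and robust variances (2511) and with all 6 libraries in the fit (2509). Leaving out 1 library gave 0 to 1972 calls. A lone library was then assumed to vary like the pair of the other group. With the replicate number as a block there were 434 calls, and with the crossed replicate block, chosen after seeing the data, 931. Deviations of libraries that share a number correlated at -0.16, so the numbers were not taken as pairs. The number of genes apart was 2335, against 907 with a pseudocount of 5 and 1519 with the stricter filter, and 1956 to 2825 without 1 library. In the blastocyst, 494 genes were past 2-fold, against 1039 with a pseudocount of 0.1, 119 with a pseudocount of 5 and 262 where at least 5 was required. Among the named genes followed through these alternatives, no value changed sign while called. Psmd14, Polr1e, Eif3m, Eif3g, Anxa2, Ddit3, Trib3, Asns and Psat1, among others, were not followed. Depth limits could not be set, since no counts are given.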

Other observations

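Histone genes, listed after the values were seen, had 31 of 49 members apart and higher in mKO late 2-cell embryos and 1 apart and lower, against 9.66% and 13.1% of all genes, with a median difference of 1.47. Smart-seq2 reads polyadenylated RNA, so these levels are not those of histone transcripts without a poly(A) tail. Hist1h4d was the 1 member called. Hist1h4c had 53.9 and 73.0 in mKO, against 10.7 and 9.01 in wild type. H2afx, the histone variant phosphorylated at DNA breaks, had 35.8 and 79.7 in mKO, against 6.86 and 2.49 in wild type (limma adjusted p = 0.0579). Summed over the list the levels were alike, at 1478 and 1936 in mKO and 1650 and 1586 in wild type. In the blastocyst, 14 of 66 histone genes were at least 2-fold lower in mKO and 2 higher, against 2.69% and 2.46% of all genes. In mzKO late 2-cell embryos 0 of the 49 were called by limma, with a median of 0.52. The shares over all genes tested in both comparisons were 4.77% higher and 11.2% lower.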
